A study of Mus musculus with 14 samples.

Results

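The 9 genes described here encode proteins of the myelin sheath and of the oligodendrocytes that make it: Mbp, Mog, Mag, Mobp, Cnp, Cldn11, Mal, Ermn and Ugt8a. They were chosen by name as myelin genes, and all 9 were found among the 23375 genes of the deposited table. Poly(A) RNA of mouse brain was sequenced in 14 libraries, 2 in each of 7 groups. The adult groups were KO2, KO3 and 2 wild-type groups that the sample titles keep apart as set 1 and set 2, and the groups at E19.5, the end of gestation, were KO2, KO7 and wild type. KO2 mice lacked 2 differentially methylated regions (DMRs, which control imprinted genes), namely the IG-DMR and the H19-DMR. In KO3 mice the Rasgrf1-DMR was missing as well. KO7 mice lacked the Gnas-DMR and Nespas-DMR, the Grb10-DMR and Kcnq1-DMR, the Igf2r-DMR and Peg3-DMR, and the Snrpn-DMR. All knockout mice came from haploid embryonic stem cells carrying these deletions, and it is known of the study, though not from its labels, that KO2 and KO3 were made to pair maternal genomes and KO7 to pair paternal ones. Deletion and parental origin therefore cannot be told apart in any comparison with wild type. The labels give no strain and no age for the adults, and do not state whether the libraries of a group are from different animals. The p-values thus measure the spread between libraries, which may be technical.

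Oligodendrocytes arise from proliferating precursors, pass through a premyelinating stage and then wrap axons with layers of compacted membrane. In the mouse brain most myelin is laid down in the weeks after birth, so a brain at the end of gestation holds few myelinating cells. Mbp and Mobp encode basic proteins that hold the inner membrane faces together, and Mbp is required for compact central myelin. Mog lies on the outermost sheath surface, Mag on the membrane facing the axon, and Cnp and Ermn at the cytoskeleton of the non-compacted channels and of the outer sheath. Cldn11 forms the tight junctions between myelin layers and is also a tight junction protein of the barrier cells of the arachnoid, a layer of the meninges. Mal is a lipid raft protein that sorts myelin cargo, and Ugt8a is the enzyme that makes galactosylceramide, the leading myelin glycolipid. The Mbp gene also gives rise to Golli transcripts, which neurons and immune cells use, and a value per gene does not separate them.

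The 250 bases before the listed start of these genes are shown because different members were called in different knockouts before birth. Windows of 8 of the 9 members were taken from the RefSeq promoter table (GRCm38.p6), and that of Mbp is not reported here. Mal, called higher in E19.5 KO2, and Cldn11, called higher in E19.5 KO7, are shown with the members that held a motif match (Mobp, Mag, Cnp and Mog), which were not called against wild type at E19.5. Capitals mark ACAAAG, the core bound by SOX proteins such as SOX10, and CTGGCAC or CTGGTAC, the motif of myelin regulatory factor (MYRF), each searched on both strands. The windows are chr9:120149492-120149741 on the plus strand (Mobp), chr7:30914923-30915172 on the minus strand (Mag), chr11:100574689-100574938 on the plus strand (Cnp), chr17:37023399-37023648 on the minus strand (Mog), chr2:127656696-127656945 on the minus strand (Mal) and chr3:31149670-31149919 on the plus strand (Cldn11).
Mobp: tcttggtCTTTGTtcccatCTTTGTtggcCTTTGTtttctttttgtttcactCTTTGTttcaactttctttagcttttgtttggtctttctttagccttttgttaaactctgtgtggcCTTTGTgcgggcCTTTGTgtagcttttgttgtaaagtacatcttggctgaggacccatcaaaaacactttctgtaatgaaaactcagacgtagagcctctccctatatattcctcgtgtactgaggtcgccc
Mag: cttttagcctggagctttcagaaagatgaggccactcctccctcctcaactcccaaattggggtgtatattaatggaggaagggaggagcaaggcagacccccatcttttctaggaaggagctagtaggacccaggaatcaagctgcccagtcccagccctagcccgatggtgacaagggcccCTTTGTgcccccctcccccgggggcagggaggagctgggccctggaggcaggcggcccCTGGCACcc
Cnp: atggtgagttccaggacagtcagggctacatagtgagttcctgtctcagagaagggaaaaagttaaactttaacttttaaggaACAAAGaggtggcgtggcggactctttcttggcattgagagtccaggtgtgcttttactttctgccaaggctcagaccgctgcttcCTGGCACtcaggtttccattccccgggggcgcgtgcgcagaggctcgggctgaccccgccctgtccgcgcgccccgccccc
Mog: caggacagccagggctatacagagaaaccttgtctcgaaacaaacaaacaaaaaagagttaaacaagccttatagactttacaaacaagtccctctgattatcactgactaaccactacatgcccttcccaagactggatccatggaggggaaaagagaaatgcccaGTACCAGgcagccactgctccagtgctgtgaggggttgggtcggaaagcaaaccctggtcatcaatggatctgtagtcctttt
Mal: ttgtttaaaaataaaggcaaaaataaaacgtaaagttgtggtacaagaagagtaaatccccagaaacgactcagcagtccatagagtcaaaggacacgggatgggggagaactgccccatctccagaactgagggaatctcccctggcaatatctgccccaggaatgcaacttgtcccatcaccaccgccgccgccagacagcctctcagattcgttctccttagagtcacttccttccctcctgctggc
Cldn11: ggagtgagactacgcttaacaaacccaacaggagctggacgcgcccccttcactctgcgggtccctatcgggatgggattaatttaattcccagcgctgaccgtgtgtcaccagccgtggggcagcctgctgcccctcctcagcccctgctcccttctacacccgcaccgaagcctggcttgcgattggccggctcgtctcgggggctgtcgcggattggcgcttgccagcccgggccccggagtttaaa
The Mobp window held 6 SOX matches, whereas Mag and Cnp held 1 each and the other windows none. At least 5 matches were found in 2 of the 27025 promoters of the table, and at least 1 in 16.5% of them. A MYRF match lay 9 bases before the listed start of Mag, 81 bases before that of Cnp and 83 bases before that of Mog, against 5.88% of all promoters with a match. Mal, Cldn11, Ermn and Ugt8a held neither motif in this window. These are matches of letters and not measured binding.

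All values are FPKM (sequenced fragments divided by transcript length and by all mapped fragments of the library), which are per length and so allow levels of different genes to be set side by side. Changes are differences of group means of log2(FPKM + 1), which understate the change of low genes. They were fitted with limma over 14322 genes, with Benjamini-Hochberg adjustment over all of them and a threshold of 0.05. Read depth is unknown, and 12701 to 13398 genes per library reached 1 FPKM. The 4 libraries of adult KO3 and set 2 were handled differently before deposit, with 9994 genes listed at 0 in all 4, so KO2 was set against set 1 and KO3 against set 2. As a check of the labels, Rasgrf1, a gene silenced on maternal chromosomes, stood at 19.7 and 14.8 FPKM in adult KO2 and at 103.6 and 85.3 FPKM in adult KO3, the group that also lacks the Rasgrf1-DMR. It stood at 149.4 and 97.2 FPKM in set 2 and at 89.5 and 100.4 FPKM in set 1. At E19.5 it had 2.94 and 0.672 FPKM in KO2, 8.25 and 8.16 FPKM in KO7, and 12.03 and 12.8 FPKM in wild type. H19, which is expressed from the maternal chromosome, had 95.7 and 87.7 FPKM in E19.5 KO7, against 16.0 and 24.3 FPKM in wild type, and Igf2, which is expressed from the paternal one, had 108.1 and 93.6 FPKM in KO7, against 37.6 and 65.5 FPKM in wild type. H19 was thus higher and Rasgrf1 lower in E19.5 KO7 than in wild type. The labels do not give the parental origin of KO7, and its part in these values was not tested. Each of the 9 members reached 1 FPKM in all 8 adult libraries, so all 9 passed the filter on low values whatever their level before birth.

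In adult brains these were abundant transcripts, led by Mbp. Mbp stood between rank 5 and rank 27 of all genes in the 8 adult libraries and made up 72.8% to 79.1% of the summed FPKM of the 9 members. Cnp was next in every adult library, at 87.5 to 181.8 FPKM. Cldn11, Mobp, Mag and Mal followed at 48.6 to 125.2 FPKM, in an order that differed between groups. Mog (21.2 to 48.4 FPKM), Ermn (13.3 to 29.7 FPKM) and Ugt8a (6.33 to 22.2 FPKM) were lowest. The plot of levels by group shows the step between the stages for every member.

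**Figure D1:**
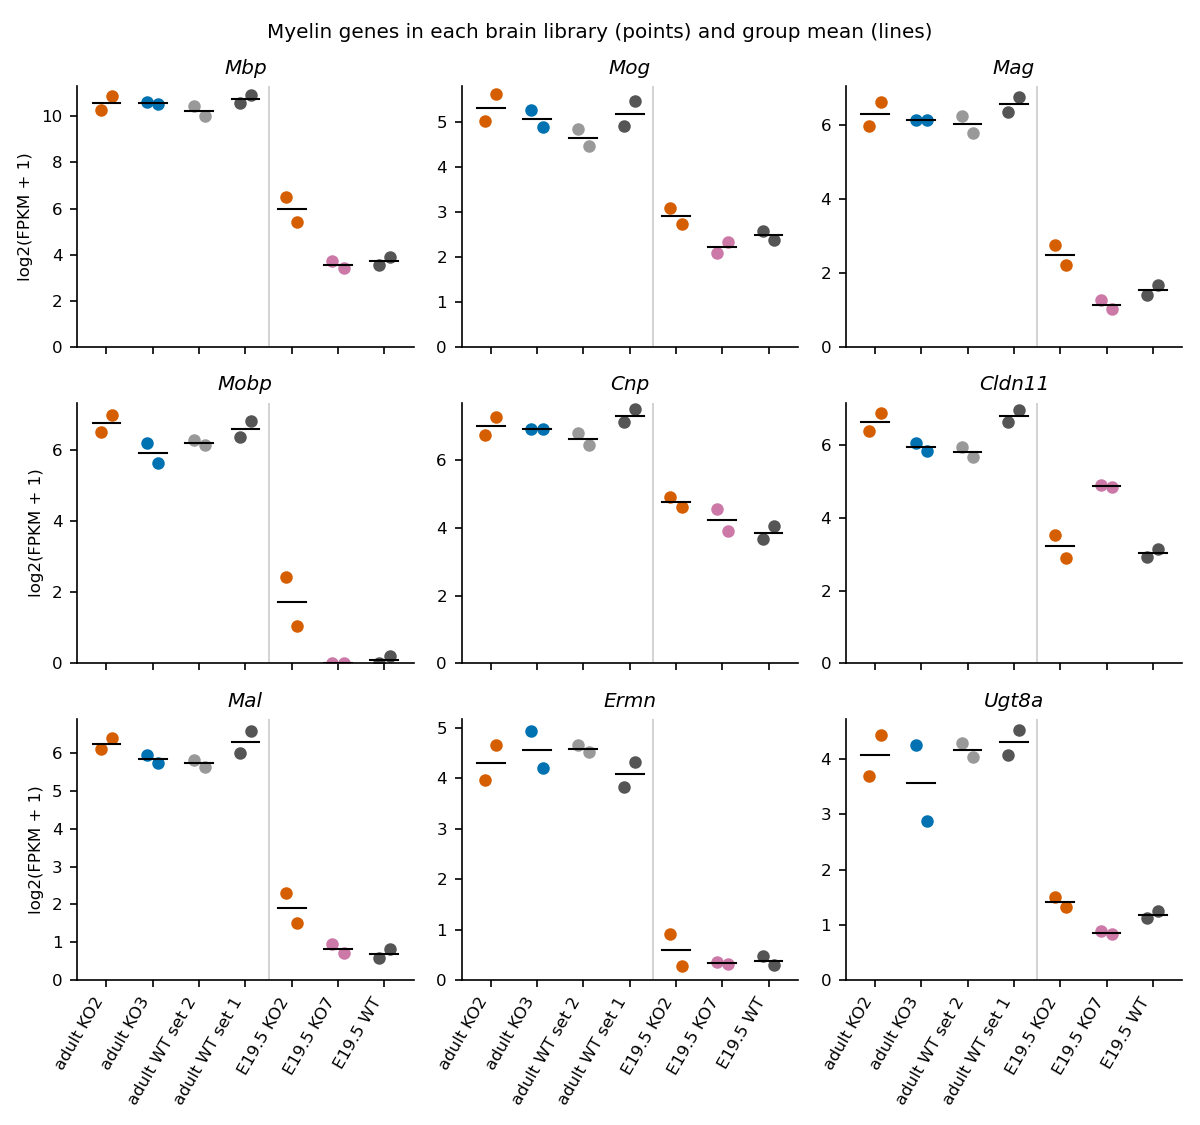
Level of each of the 9 genes in each library, as log2(FPKM + 1), with adult groups left of the grey line and E19.5 groups right of it; points are libraries (n = 2 per group) and lines are group means. All adult points lie above all E19.5 points for every gene, Mbp is raised in both E19.5 KO2 libraries and Cldn11 in both E19.5 KO7 libraries.

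The comparison of adult with E19.5 wild type gives the size of this step. All 9 members were higher in adult wild type (set 1), where 21.9% of all genes tested were called higher and 56.0% in either direction. Mbp had 1542 and 1972 FPKM in adult wild type, against 10.9 and 13.9 FPKM in E19.5 wild type, a log2 change of 7.03 ± 0.32 (SE, adjusted p = 7e-08, limma). Mobp, at 81.4 and 111.6 FPKM in adult wild type, was listed at 0 in 1 E19.5 wild-type library and had 0.149 FPKM in the other (log2 change 6.49 ± 0.36). Mal (5.60) and Mag (5.02) changed more than Cldn11 (3.77), Ermn (3.70), Cnp (3.46), Ugt8a (3.12) and Mog (2.71). The median over the 9 members was 3.77, against -0.15 over all genes tested. Other genes of the lineage did not all move this way. Of 20 further genes of myelin and mature oligodendrocytes 19 were higher in adult wild type, among them Pllp, a raft protein of myelin (3.68). Opalin, an oligodendrocyte surface glycoprotein, had 33.4 and 41.9 FPKM in adult wild type and was listed at 0 in both E19.5 wild-type libraries. Of 7 precursor genes 1 was higher and 3 were lower, including Vcan, which encodes the matrix proteoglycan versican (fell by 2.40 on the log2 scale, adjusted p = 8.8e-07, limma).

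The comparison of E19.5 KO2 with E19.5 wild type asks what brains lacking the H19-DMR and IG-DMR express at the end of gestation. Mbp and Mal were higher in KO2, 2 of 9 members called higher, where 0.88% of all genes tested were. Mbp had 89.3 and 42.1 FPKM in KO2 brains, against 10.9 and 13.9 FPKM in wild-type brains. Both KO2 libraries lay above both wild-type libraries, and KO2 replicate 1 lay far above KO2 replicate 2. The log2 change was 2.23 ± 0.32 (SE, 95% interval 1.52 to 2.93, adjusted p = 0.00952, limma), with means of 65.7 ± 33.4 FPKM in KO2 and 12.4 ± 2.18 FPKM in wild type (SD, n = 2 each). Mal had 3.92 and 1.87 FPKM in KO2 brains, against 0.493 and 0.759 FPKM in wild-type brains, again without overlap (log2 change 1.21 ± 0.25, adjusted p = 0.0462, limma). KO2 replicate 1 also had far less Xist than KO2 replicate 2 and both wild-type libraries, with the values given below for KO7. The part of this in the Mbp and Mal changes was not tested. The calls of Mbp and Mal were both lost with some libraries left out. Without KO2 replicate 1 the change of Mbp was 1.69 (adjusted p = 0.0802, limma) and that of Mal 0.82 (adjusted p = 0.288, limma). Leaving out wild-type replicate 1 gave 2.06 for Mbp (adjusted p = 0.144, limma) and 1.09 for Mal (adjusted p = 0.372, limma), and without wild-type replicate 2 the change of Mal was 1.33, larger than with all libraries, but was not called (adjusted p = 0.1055, limma).

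The other 7 members did not pass in E19.5 KO2, though all 9 changes were positive, with a median of 0.91 against -0.01 over all genes tested. Mobp had 4.34 and 1.06 FPKM in KO2 brains, against 0 and 0.149 FPKM in wild-type brains (log2 change 1.63 ± 0.36, adjusted p = 0.0542, limma), and passed when KO2 replicate 2 was left out (2.32, adjusted p = 0.00735). Mag had 5.74 and 3.59 FPKM in KO2, against 1.62 and 2.202 FPKM in wild type (0.94 ± 0.25, adjusted p = 0.112). Cnp had 29.2 and 23.8 FPKM in KO2, against 11.8 and 15.6 FPKM in wild type (0.91 ± 0.25, adjusted p = 0.112). For these 3 genes every KO2 library lay above every wild-type library. The same held for Mog and Ugt8a, so that 7 of 9 members did not overlap, where 27.3% of all genes tested lay above wild type in this way. The changes of Mog (0.43), Ugt8a (0.23), Ermn (0.22) and Cldn11 (0.18) were small beside their intervals, which reached from -0.57 to 1.04 for Ugt8a. Cldn11 had 10.6 and 6.45 FPKM in KO2, against 6.59 and 7.84 FPKM in wild type, so the groups overlapped. All 9 members were higher in KO2 replicate 1 than in KO2 replicate 2, by a median log2 difference of 0.64, while the median over all genes tested was 0.03.

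**Figure D2:**
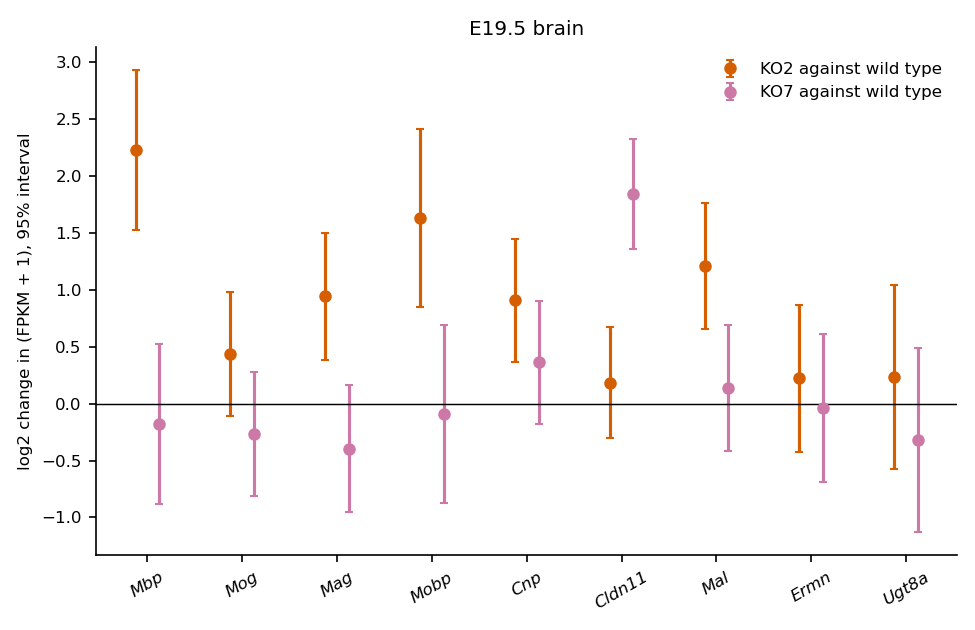
Difference of group means of log2(FPKM + 1) at E19.5 for KO2 against wild type (left point of each pair) and KO7 against wild type (right point), with 95% intervals from limma (n = 2 libraries per group). KO2 changes are positive for all 9 genes and largest for Mbp (2.23), and the KO7 change of Cldn11 (1.84) is the only KO7 interval that lies wholly above 0.

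Genes with related roles were counted beside the members in E19.5 KO2. None of the 20 further myelin and mature oligodendrocyte genes passed, and 16 had positive changes (median 0.35). The nearest were Pllp (0.62, adjusted p = 0.0698, limma) and Car2, the carbonic anhydrase of oligodendrocytes (0.68, adjusted p = 0.0954). Of 8 premyelinating genes 1 passed, Bcas1, a marker of cells that are starting to myelinate. It had 8.31 and 7.84 FPKM in KO2, against 2.24 and 3.28 FPKM in wild type (log2 change 1.29 ± 0.23, adjusted p = 0.0254, limma). None of the 8 transcription factors of the lineage passed (Myrf, the factor that switches on myelin genes, 0.51, adjusted p = 0.338), nor did any of the 10 lipid genes, the 8 junction and paranode genes tested or the 7 precursor genes, whose median change was -0.02. Astrocyte genes moved with the members: all 10 had positive changes (median 0.72), 1 passed (Aldoc, a glycolytic enzyme, 1.57 ± 0.23, adjusted p = 0.00952, limma), and their summed level was 561 and 521.1 FPKM in KO2, against 254 and 302.8 FPKM in wild type. Among peripheral myelin genes, Pmp2, a fatty acid binding protein, stayed at or below 0.14 FPKM in all libraries. The 7 peripheral myelin genes summed to 22.7 and 23.1 FPKM in KO2, against 21.2 and 21.5 FPKM in wild type. Red cell genes summed to 588.1 and 1004 FPKM in KO2, against 198.7 and 673.2 FPKM in wild type. C1qb passed among the microglial genes and Ly6c1 among the endothelial genes. The part of these other cells in the member changes was not tested. In whole brain, more cells of a type and more RNA per cell cannot be told apart.

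KO7 brains gave another picture at E19.5. Cldn11 was the 1 member of 9 called higher against wild type, where 3.02% of all genes tested were. It had 28.9 and 27.9 FPKM in KO7 brains, against 6.59 and 7.84 FPKM in wild-type brains. The replicates of each group lay close together and the groups far apart, with means of 28.4 ± 0.734 FPKM in KO7 and 7.21 ± 0.882 FPKM in wild type (SD, n = 2 each). The log2 change was 1.84 ± 0.22 (95% interval 1.36 to 2.33, adjusted p = 0.00205, limma), and it was called under all 15 alternatives tried. The other 8 members ranged from -0.40 (Mag, adjusted p = 0.394) to 0.36 (Cnp, adjusted p = 0.420). Mbp, at 12 and 9.65 FPKM in KO7 against 10.9 and 13.9 FPKM in wild type, changed by -0.18 (95% interval -0.88 to 0.53, adjusted p = 0.789, limma). Mog, Mag and Ugt8a lay below wild type in both KO7 libraries without being called, as 29.6% of all genes tested did.

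Few other genes of the lineage passed in KO7. Of the 20 further myelin genes Gsn, which encodes the actin-severing protein gelsolin, was called higher (0.99 ± 0.17, adjusted p = 0.0115, limma), and of the junction genes Cntn1, a contactin of neurons and glia, was called lower (fell by 0.87 on the log2 scale, adjusted p = 0.0199). No precursor, premyelinating, lipid or transcription factor gene passed. Meningeal fibroblast genes, a list chosen after the values of Cldn11 were seen, did move with it. All 12 had positive changes in KO7 (median 0.99) and 7 were called higher, among them Lum, which encodes the matrix proteoglycan lumican (5.58 and 5.76 FPKM in KO7, against 0.941 and 1.58 FPKM in wild type). Their summed level was 269 and 230.2 FPKM in KO7, against 89.6 and 125.6 FPKM in wild type, and 96.8 and 100.5 FPKM in KO2. Red cell genes (4 of 7 called higher) and endothelial genes (2 of 7) also moved with KO7. Of 10 astrocyte genes 1 was called higher (Gja1, 0.92), while 5 of the 10 changes were negative. Of 8 microglial genes 1 was called higher (C1qb, 0.85), which had passed in KO2 as well. The part of any of these cells in the Cldn11 level was not tested. The Y-linked gene Eif2s3y had 22.6 and 25.03 FPKM in KO7 and was listed at 0 in both wild-type libraries, and Xist had 0.0159 and 0.0403 FPKM in KO7, against 117.3 and 105.7 FPKM in wild type. The KO2 libraries differed from each other in Xist, at 1.498 and 84.0 FPKM. Sex and genotype therefore cannot be told apart in this comparison.

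**Figure D3:**
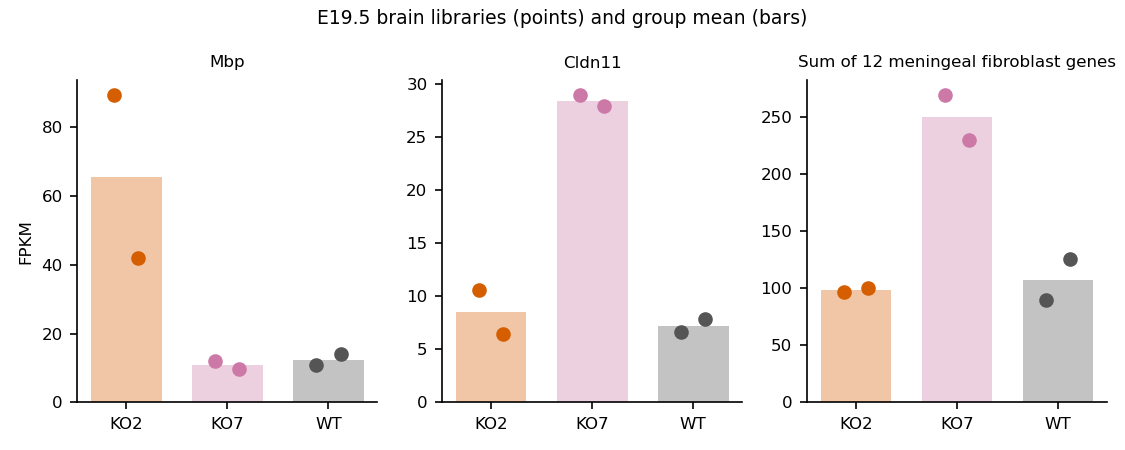
FPKM of Mbp, of Cldn11 and of the sum of 12 meningeal fibroblast genes in the E19.5 libraries (points) with group means (bars, n = 2 libraries per group). Mbp is high in both KO2 libraries (89.3 and 42.1 FPKM), whereas Cldn11 (28.9 and 27.9 FPKM) and the meningeal sum (269 and 230.2 FPKM) are high in both KO7 libraries.

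Setting E19.5 KO2 against E19.5 KO7 tests the difference between these groups directly. Eif2s3y was listed at 0 in 1 KO2 library and had 0.0274 FPKM in the other, against 22.6 and 25.03 FPKM in KO7, so sex and genotype cannot be told apart here either. Mbp (2.41 ± 0.32, adjusted p = 0.00265, limma), Mobp (1.72, adjusted p = 0.0195), Mag (1.34, adjusted p = 0.0133) and Mal (1.08, adjusted p = 0.0318) were higher in KO2, where 2.4% of all genes tested were. Cldn11 was lower in KO2 (fell by 1.66 on the log2 scale, adjusted p = 0.00265, limma), where 3.23% of all genes tested were. Mog, Cnp, Ugt8a and Ermn were not called (0.26 to 0.70). Mobp had 4.34 and 1.06 FPKM in KO2, while KO7 had 0.0120 FPKM in 1 library and a listed 0 in the other. Mbp and Cldn11 passed without any single library. Mag, Mobp and Mal did not pass without KO2 replicate 1, where their changes were 1.06, 1.04 and 0.69 (adjusted p = 0.117, 0.102 and 0.226, limma). Without KO7 replicate 1 they did not pass either, though their changes were larger than with all libraries, at 1.47, 1.73 and 1.19 (adjusted p = 0.063, 0.121 and 0.124). Without KO7 replicate 2 the changes were 1.21, 1.71 and 0.97 (adjusted p = 0.0963, 0.0994 and 0.156). Both knockouts are set against the same wild-type libraries above, so those comparisons share their controls. Bcas1 (1.55 ± 0.23, adjusted p = 0.00396, limma), Plekhb1, Pllp and Car2 were higher in KO2 as well. So were 5 of the 10 astrocyte genes, and 8 of the 12 meningeal genes were lower in KO2.

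The make-up of the set differed between the groups at E19.5. Mbp was the highest member in both KO2 libraries (58.2% and 48.8% of the summed member FPKM), Cldn11 in both KO7 libraries (41.2% and 47.8%) and Cnp in both wild-type libraries. Mbp made up 17.1% and 16.6% in KO7 and 28.7% and 30.1% in wild type. Cldn11 made up 6.93% and 7.48% in KO2 and 17.4% and 16.9% in wild type. The summed level of the 9 members was 153.5 and 86.2 FPKM in KO2, 70.1 and 58.3 FPKM in KO7, and 37.9 and 46.3 FPKM in wild type. In E19.5 wild type the order below Cnp and Mbp, whose libraries overlapped, was Cldn11, Mog, Mag, Ugt8a, Mal, Ermn and Mobp, each apart from the next. Across the 6 E19.5 libraries, Pearson's r between a member and the mean of the other 8 was 0.731 to 0.998 for 8 members and -0.36 for Cldn11, as a description over libraries that share groups.

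The adult knockouts showed no called change in any member. In adult KO2 against set 1, 0 of 9 passed (limma; also 0 at an unadjusted p under 0.05), where 0.154% of all genes tested were called. Mbp had 1255 and 1917 FPKM in adult KO2, against 1542 and 1972 FPKM in set 1 (log2 change -0.17, 95% interval -0.87 to 0.53, adjusted p = 0.959, limma). The changes ran from -0.29 (Cnp) to 0.24 (Ermn), and the groups overlapped for all 9 members. All 9 members were higher in replicate 2 than in replicate 1 within adult KO2 (median log2 difference -0.61, replicate 1 minus replicate 2) and within set 1 (-0.45), while the medians over all genes tested were -0.03 and 0.01. In adult KO3 against set 2, 0 of 9 passed again (0 at an unadjusted p under 0.05), where 22.1% of all genes tested were called. Mbp had 1567 and 1511 FPKM in adult KO3, against 1404 and 1042 FPKM in set 2 (0.35, 95% interval -0.36 to 1.05, adjusted p = 0.450, limma). Mbp, Mog and Cnp lay above set 2 in both KO3 libraries, as 29.2% of all genes tested did. Ugt8a had 18.1 and 6.33 FPKM in adult KO3, against 18.5 and 15.5 FPKM in set 2 (-0.60, adjusted p = 0.249). Its low value came from KO3 replicate 2: the change was 0.10 without that library, and -1.29 without KO3 replicate 1. Averaged over both adult knockouts, each against its own set, 0 of 9 members passed (0 at an unadjusted p under 0.05), where 2.83% of all genes tested were called.

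**Figure D4:**
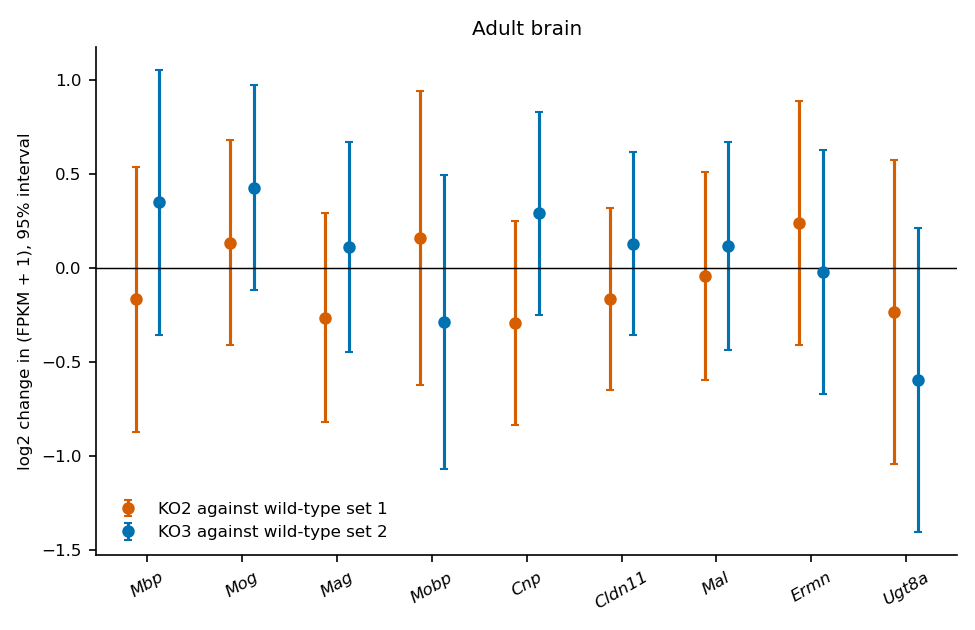
Difference of group means of log2(FPKM + 1) in adult brain for KO2 against wild-type set 1 (left point of each pair) and KO3 against wild-type set 2 (right point), with 95% intervals from limma (n = 2 libraries per group). Every interval includes 0, and the widest departure is Ugt8a in KO3 (-0.60).

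Among the 20 further myelin genes 0 were called in adult KO2. Of the 20, 3 had an unadjusted p under 0.05 there (limma), a cut for which the share of all genes was not counted. In adult KO3, 6 of the 20 were called higher. The 6 were Ppp1r14a, a phosphatase inhibitor abundant in oligodendrocytes (1.49 ± 0.29, adjusted p = 0.0114, limma), Cd9, Gsn, Qdpr, Apod and Fth1. In this comparison 13.9% of all genes tested were called higher. Of the same 20 genes, 4 were called lower in set 2 than in set 1 (Cd9, Gsn, Opalin and Pllp), so Cd9 (-0.62) and Gsn (-0.97) were low in the wild-type set that KO3 was set against. Set 2 against set 1 gave 1 call among the members, Cldn11, at 60.7 and 50.2 FPKM in set 2 and 98.9 and 124.1 FPKM in set 1 (fell by 0.99 on the log2 scale, adjusted p = 0.0101, limma), where 20.9% of all genes tested were called in either direction. That call ended without set 1 replicate 2 (-0.83, adjusted p = 0.0803, limma) and without set 2 replicate 2 (-0.86, adjusted p = 0.0792). For 7 members both set 2 libraries lay below both set 1 libraries, as 37.8% of all genes tested did, and Mbp changed by -0.53 (adjusted p = 0.257) and Ermn by 0.51 (adjusted p = 0.233). Sampling, sequencing and handling before deposit cannot be told apart here.

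The stage step was also present within KO2. All 9 members were higher in adult than in E19.5 KO2, where 20.7% of all genes tested were, with log2 changes between 2.25 (Cnp) and 5.02 (Mobp). Mbp changed by 4.64 ± 0.32 in KO2 (adjusted p = 1.08e-06, limma), against 7.03 ± 0.32 in wild type. The difference of these steps, KO2 minus wild type, was negative for 8 of 9 members (median -1.20, against 0.04 over all genes tested). Of the 9, 0 passed, where 0.0628% of all genes tested were called. An unadjusted p under 0.05 was reached by 5 of 9 (Mbp, Mag, Mobp, Cnp and Mal, limma), and the share of all genes at that cut was not counted. The same 5 reached it in E19.5 KO2 against wild type. That change is part of this difference, so the 2 counts are not separate evidence. For Mbp this difference of steps was -2.40 (95% interval -3.39 to -1.40, adjusted p = 0.0714, limma). It passed without E19.5 KO2 replicate 2 (-2.93, adjusted p = 0.0238, limma). It also passed in the fit without adult KO3 and set 2 (adjusted p = 0.0436, limma). These were 2 of 19 alternatives, and over the others the adjusted p reached 0.2475 with a library left out and 0.3632 with another setting. As a share of the adult mean, the E19.5 level of Mbp was 4.14% in KO2 and 0.706% in wild type. For Mobp it was 2.5% in KO2, from libraries at 4.34 and 1.06 FPKM, and 0.0771% in wild type, from a listed 0 and 0.149 FPKM. For Mal it was 3.83% in KO2 and 0.791% in wild type, and for Mag 5.9% in KO2 and 2.03% in wild type. Mog (16.5% in KO2 and 12.7% in wild type) and Ermn (2.86% in KO2 and 1.89% in wild type) lay nearer together. There is no adult KO7 group, and Cldn11 in E19.5 KO7 stood at 25.5% of its mean in set 1.

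**Figure D5:**
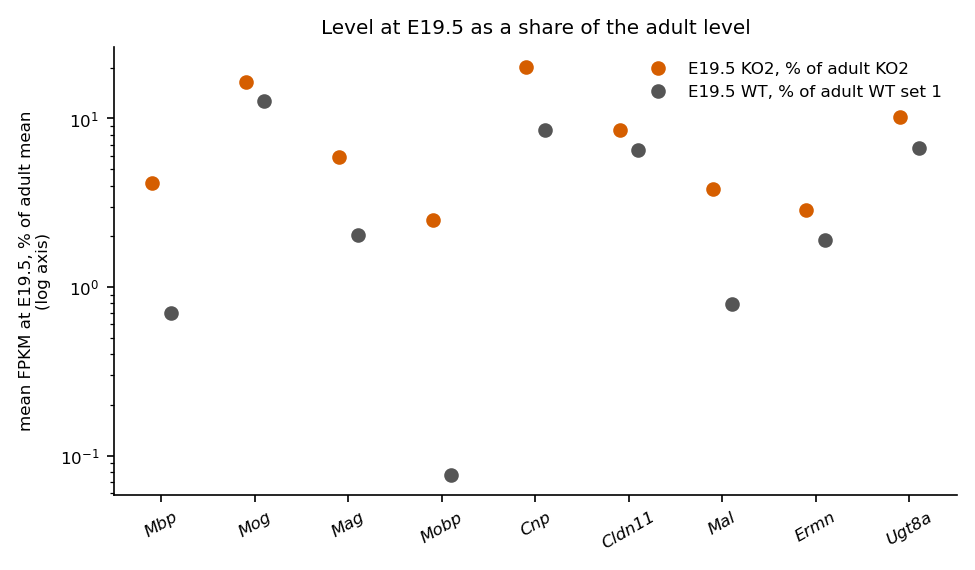
Mean FPKM at E19.5 as a percent of the adult mean of the same genotype (log axis), for KO2 against adult KO2 (left point of each pair) and wild type against adult wild-type set 1 (right point); each point is a ratio of 2 means of n = 2 libraries. The KO2 share is above the wild-type share for all 9 genes, and the wild-type share of Mobp (0.0771%) rests on a listed 0 and 0.149 FPKM.

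Genes outside the set were ranked by Pearson's r with the mean log2(FPKM + 1) of the members, as a description with no test. Over all 14 libraries, where the stage step dominates, the highest included Fa2h, the hydroxylase of myelin sphingolipids (r = 0.998), Tmem88b (0.996), Pllp (0.995) and Trf, which encodes the iron carrier transferrin (0.993). Over the 6 E19.5 libraries they included Cyp4f14 (0.991), Neu4, a sialidase (0.985), Matn4 (0.982) and Gpr17, a receptor of premyelinating oligodendrocytes (0.980). Fa2h had 1.62 and 0.614 FPKM in E19.5 KO2, 0.0771 and 0.161 FPKM in KO7, and 0.150 and 0.216 FPKM in wild type.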

How the data were processed

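Poly(A) RNA from whole brain was extracted with TRIzol, per the labels' protocols, and the mm9 build, Cufflinks 2.2.1, TopHat2 2.1.1 and CASAVA appear, per the submitters' processing notes, without a stated role or order. The authors deposited FPKM values for 14 libraries in 1 table. A header word reading FPKM stands over 10 columns, and the other 4 (adult KO3 and set 2) were taken as FPKM. In those 4 libraries, 6396 genes listed at 0 throughout had a value above 0 elsewhere, and the smallest per-gene maximum above 0 was 1.02 FPKM. Annotation, filters and strand setting: not given in the sources used here.

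Low values showed no steps of whole reads (the fullest bin of between-library ratios held up to 9.55% of genes over 45 pairs), so the depth of each library is unknown and counting error cannot be given. Entries naming no gene (2) were left out. The test used genes reaching 1 FPKM in 2 or more libraries, on log2(FPKM + 1) (pseudocount 1), with 7 groups and 7 residual degrees of freedom. It was limma 3.58.1 (R 4.3.3) with a mean-dependent prior, 2-sided. It was tried on simulated data with 200 of 14322 genes changed, for each knockout against its wild type. It recovered 0% of them at a log2 change of 0.5, 72.0% to 74.5% at 1 and 97.0% to 98.2% at 2. False calls made up 3.33% to 6.68% of calls at 1 and 2. At 0.5 they made up 33.3% for adult KO3 and 0% for the others. Replicates correlated at r = 0.9644 to 0.9833, with at most 0.00701% identical values above 0. Alternatives changed the pseudocount, filter, scaling, grouping, spread, block and libraries.

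The members and gene lists were chosen with earlier results of these data known, and the meningeal list after the Cldn11 values were seen. From each list the named genes are those that passed and up to 4 with the smallest p, and the 10 genes most like the member mean were ranked by Pearson's r. Some genes that met this rule are not reported here. All 9 members matched a RefSeq symbol. Motifs were searched in the RefSeq promoter table of GRCm38.p6, over 250 bases before each start.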

Additional observations from a re-analysis of the deposited data

How the results depend on the processing

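Of 897 member values recomputed under an alternative, 840 kept their direction and side of the threshold, 29 lost and 6 gained a call, and 22 turned direction. The stage calls of all 9 members, in wild type and in KO2, and the Cldn11 call in E19.5 KO7 held under all 15 alternatives. In E19.5 KO2 against wild type (2 members called), Mbp was called under 12 of 15 and Mal under 7 of 15. The count was 1 with pseudocount 10, no filter or quantile scaling (Mbp adjusted p = 0.218, limma). It was also 1 with the adult wild-type sets pooled or the compared libraries alone. It was 3 with pseudocount 0.1 (Mobp 3.85, adjusted p = 0.00883, limma) and without adult KO3 and set 2. With a library left out, the change ranged from 1.69 to 2.76 for Mbp, 0.82 to 1.60 for Mal and 0.94 to 2.32 for Mobp. Against KO7 (5 called) the count was 2 with pseudocount 10 and 2 to 5 with a library left out. Set 2 against set 1 (1 called) gave 2 with pseudocount 10 and 0 to 1 with a library left out. The stage difference (0 called) gave 1 without adult KO3 and set 2, an alternative chosen after seeing the data, and 0 to 1 with a library left out. Adult KO3 against set 2 and the averaged adult knockouts (0 called) gave 0 to 1 with a library left out. The cause of these moves was not tested.

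Nothing in the labels says that replicate numbers pair the samples. The correlation of same-numbered deviations was -0.158 between E19.5 KO2 and wild type, -0.0868 between KO7 and wild type, -0.288 between KO2 and KO7, and -0.163 between adult and E19.5 KO2, but 0.233 between adult KO2 and set 1, 0.127 between adult KO3 and set 2, and 0.108 between set 1 and E19.5 wild type. With 2 pairs each, this does not settle whether the numbers pair the adult libraries. With the replicate number as a block, 1 member was called in E19.5 KO2 against wild type and 139 genes in all, against 183 without it, and in adult KO2 against set 1 the block gave 0 members and 21 genes (22 without it). With the E19.5 KO2 numbers crossed, chosen after seeing the data, the counts were 1 member and 133 genes against wild type, and 5 members against KO7.

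Values that turned direction were all of changes that were not called as reported. With quantile scaling Mbp changed by -2.32 in adult KO3 and by 2.33 in set 2 against set 1. With the wild-type sets pooled adult KO2 gave 0.094 for Mbp, 0.047 for Cnp and -0.020 for Ermn, and the stage difference gave 0.15 for Cldn11 and -0.24 for Ermn. That of Ermn was also -0.25 with pseudocount 0.1 and -0.037 with median-of-ratios scaling. With a library left out, the ranges were -0.14 to 0.51 (Cldn11) and -0.10 to 0.54 (Ermn) in E19.5 KO2 against wild type, -0.058 to 0.58 (Ermn) against KO7, -0.47 to 0.14 (Mbp) and -0.11 to 0.58 (Ermn) in adult KO2, -1.29 to 0.10 (Ugt8a) in adult KO3, and -0.61 to 0.0026 (Mog) and -0.33 to 0.36 (Ermn) for the stage difference. Genes called in all ranged widely: 6 (without E19.5 WT replicate 1) to 591 (without adult KO3 and set 2) in E19.5 KO2 against wild type (183 as reported), 47 to 1696 in KO7 (637), 174 to 1821 between the knockouts (806), 0 to 65 in adult KO2 (22), 6 to 6773 in adult KO3 (3164), 0 to 4562 in the averaged knockouts (405), 2 to 288 for the stage difference (9) and 1265 to 4458 between the sets (2990). With 2 libraries a group, and with a single library left in 1 group whose spread is then taken from the others, calls near the threshold move easily.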
